A study of Mus musculus with 30 samples.

Results

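The Dppa genes (developmental pluripotency associated genes) were named for being active in embryonic stem cells, and 4 of them, Dppa2, Dppa3, Dppa4 and Dppa5a, were members of the set described here. They were chosen by name alone, as the rows of the deposited table that carry those symbols, and made up 4 of the 12428 genes listed. The shared name does not denote a single protein family. DPPA2 and DPPA4 are paired nuclear proteins with a SAP domain that bind together at bivalent promoters, and they act upstream of the 2-cell-like state, in which stem cells briefly switch on genes of the early embryo. DPPA3 (also called Stella or PGC7) marks primordial germ cells and the egg and restrains maintenance DNA methylation through UHRF1. DPPA5A (also called ESG1) is a small RNA-binding protein with a KH domain that is abundant in undifferentiated stem cells.

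The libraries came from naive mouse embryonic stem cells of mixed C57BL/6J and 129 origin, kept in serum with LIF and inhibitors of MEK and GSK3. KMT2C and KMT2D are related histone methyltransferases that act at enhancers, and GRHL2 is a transcription factor of epithelial genes, here fused to ERT, a receptor part that tamoxifen activates. All cells lacked Kmt2c. The Kmt2c-KO line also carried floxed Kmt2d alleles ("Kmtd fl/fl" in the labels), and the double-KO line lacked both genes. Both lines were studied with GRHL2-ERT, each exposed to ethanol or to tamoxifen over 8 h or 16 h. Kmt2c-KO cells that lacked GRHL2-ERT were given tamoxifen for the same times, and there were 10 groups of 3 libraries in all. Per the series text, clones with similar GRHL2 levels were picked, so a line difference and a clone difference cannot be told apart. No label states that replicates were grown as separate cultures. Each p therefore reflects the spread between these libraries alone, which may be technical.

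Dppa4 and Dppa2 lie side by side on the plus strand of chromosome 16 (mm10), at chr16:48283733-48294237 and chr16:48303908-48319723, with 9.67 kb between the end of Dppa4 and the start of Dppa2. Dppa3 lies at chr6:122626410-122630272 on the plus strand, and Dppa5a at chr9:78367052-78368177 on the minus strand. All are annotated as protein-coding in GENCODE mouse release 21, and none overlaps another gene there. QuantSeq libraries hold short tags from the 3′ ends of transcripts, so copies of a gene can share its tags. The sequences that follow are examples of bases that differ between such copies and the members. Each is 60 bases of a member's coding sequence beside the same stretch of a copy annotated as a pseudogene. These stretches lie nearer the start than the 3′ end of the member's transcript, so they do not show whether 3′ tags can be told apart. Capitals mark the bases that differ within a set.

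Dppa5a, bases 79 to 138 of its transcript, from the start codon: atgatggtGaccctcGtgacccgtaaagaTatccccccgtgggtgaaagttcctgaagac
Dppa5b: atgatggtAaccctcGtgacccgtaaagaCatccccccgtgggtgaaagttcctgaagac
Dppa5c: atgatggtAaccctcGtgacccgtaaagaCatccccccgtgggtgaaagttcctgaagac
Gm6083: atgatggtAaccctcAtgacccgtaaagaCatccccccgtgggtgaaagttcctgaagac
Dppa4, bases 84 to 143 of its transcript, from the start codon: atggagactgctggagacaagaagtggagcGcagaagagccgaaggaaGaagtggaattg
Gm14058: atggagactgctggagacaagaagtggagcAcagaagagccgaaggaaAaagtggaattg
Dppa2, bases 581 to 640 of its transcript: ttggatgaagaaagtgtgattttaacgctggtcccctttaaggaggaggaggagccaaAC
Gm9788: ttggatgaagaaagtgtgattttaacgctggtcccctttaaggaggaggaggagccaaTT
Dppa3, bases 132 to 191 of its transcript: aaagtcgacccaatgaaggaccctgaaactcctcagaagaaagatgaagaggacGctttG
Dppa3-ps: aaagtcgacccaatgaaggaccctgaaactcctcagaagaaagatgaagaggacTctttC

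In these stretches the copies differed from the member at 2 bases, or at 3 for Gm6083. Each stretch was picked as the first in the coding sequence where every copy shown differed at 2 bases or more. These counts follow from that rule and do not measure how closely the copies match, in particular at the 3′ end. Over whole transcripts, 29.1% of the 50-base windows of Dppa2, 35.9% of those of Dppa4, 17.7% of those of Dppa3 and 38.6% of those of Dppa5a were identical to a window in a transcript of another gene. The transcript taken for each member was the protein-coding one that reaches furthest at the 3′ end. Within its last 500 bases, where 3′ tags fall if that end is used, Dppa2 and Dppa4 shared 0 of 451 windows, Dppa3 shared 48 (10.6%) and Dppa5a shared 209 (46.3%). Where the tags of these libraries fell was not checked. The level of Dppa5a, and to a lesser degree that of Dppa3, may therefore hold or lack reads of copies. Of the genes that share windows with Dppa5a, only Gm6083 and Pigp were in the deposited table. Gm6083 was at 3.78 CPM (counts scaled to a fixed library total) in double-KO and 12.5 CPM in Kmt2c-KO cells in ethanol at 8 h, far below Dppa5a, and was called lower there too (log2 fold change -1.46 ± 0.24 SE, adjusted p = 1.7e-05, limma). Pigp, which shares 70 windows with Dppa5a, all in the last 500 bases, was at 18.6 CPM in double-KO and 9.10 CPM in Kmt2c-KO cells and was not called (0.94 ± 0.39, limma adjusted p = 0.0504).

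Levels are given as CPM returned from the deposited log2 values. Because each transcript gives 1 tag near its end, CPM from 3′ tags do not scale with transcript length, and the order of the genes below is on that scale. Over the 18 Kmt2c-KO libraries, Dppa5a had a median of 7829 CPM, Dppa4 of 259 CPM, Dppa2 of 104 CPM and Dppa3 of 37.2 CPM. The order was the same in the 12 double-KO libraries, with medians of 2585, 128, 35.9 and 2.45 CPM. Dppa5a was the most abundant member in all 30 libraries, by its lowest value of 751 CPM against the highest value of 400.3 CPM for Dppa4. In bulk RNA, fewer cells with a transcript and less of it per cell cannot be told apart.

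**Figure D1:**
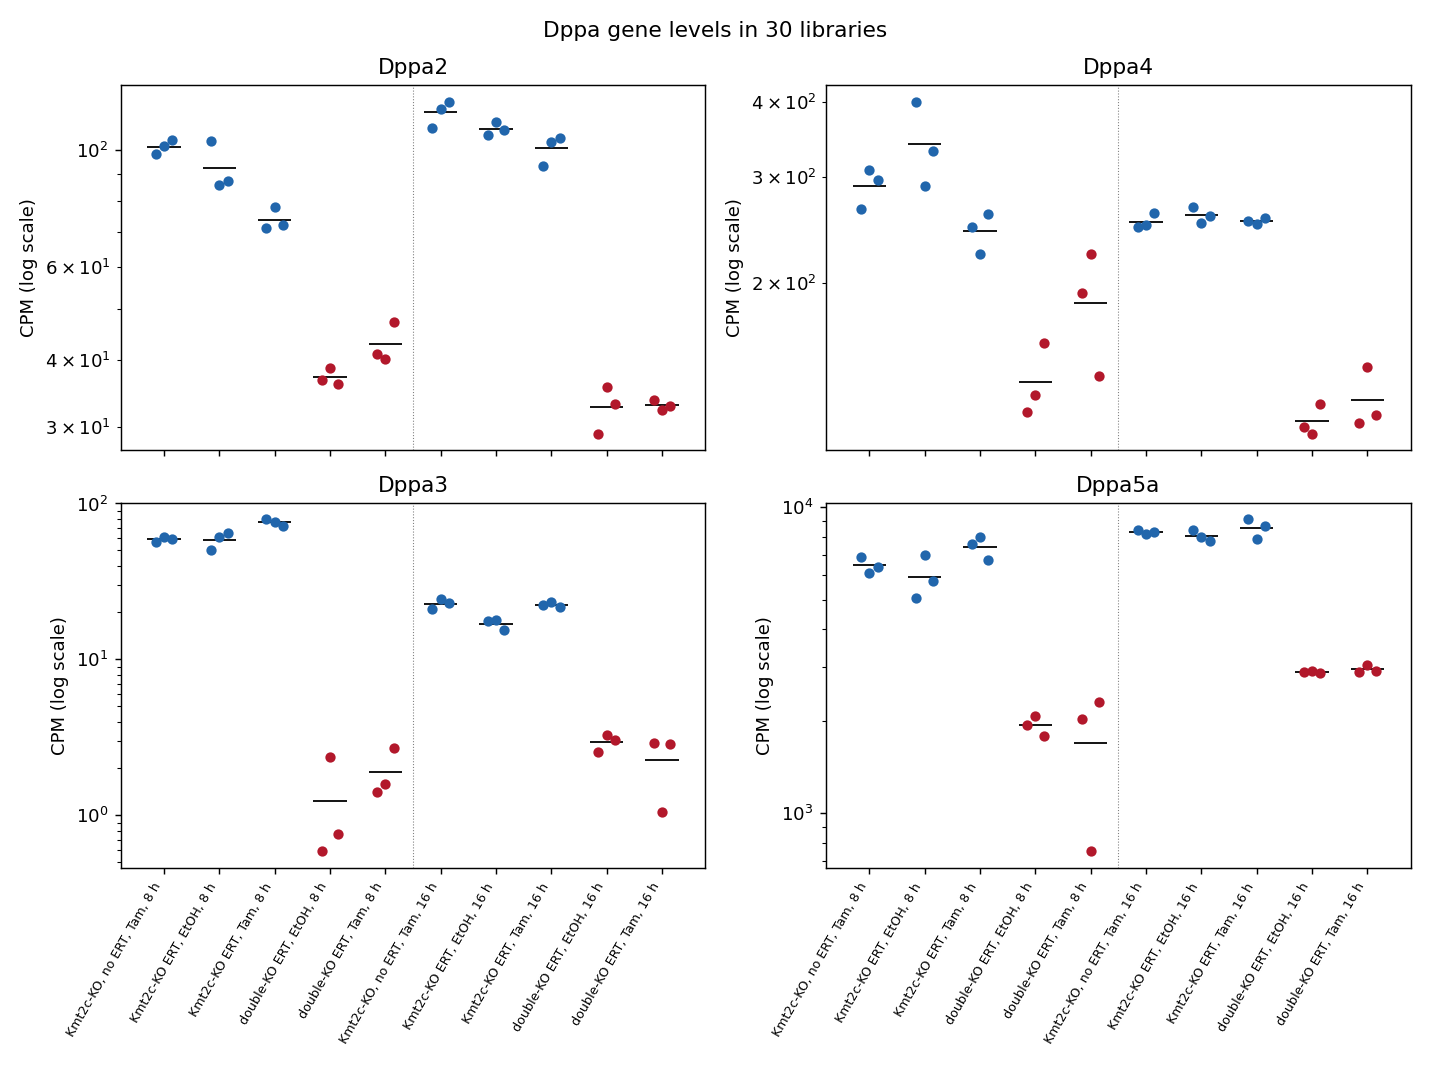
CPM of Dppa2, Dppa4, Dppa3 and Dppa5a (log axes) in each of 30 libraries by group, with 8 h left and 16 h right of the dotted line; blue points are Kmt2c-KO and red points double-KO libraries, ERT marks GRHL2-ERT, Tam and EtOH are tamoxifen and ethanol, and the bar is the group mean of 3 libraries. The red points lie below the blue ones for Dppa2, Dppa3 and Dppa5a in every library, and for Dppa4 in all but 1 double-KO library, which reached 223.9 CPM.

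The recovered depth was 8.857 to 22.05 M reads per library (median 16.22 M). All 4 members passed the filter of at least 1 CPM in a group mean. Grhl2 was at 1.40 to 3.55 CPM in the libraries without GRHL2-ERT and at 32.4 to 210 CPM in those with it. In ethanol at 8 h it was 158 to 210 CPM in Kmt2c-KO and 32.4 to 52.2 CPM in double-KO cells, and its part in the line differences below was not tested. Tags of Kmt2c (9.47 to 32.8 CPM in Kmt2c-KO cells) and of Kmt2d (5.77 to 13.6 CPM in double-KO cells) were present in all libraries; a 3′ tag outside a deleted part checks no genotype. The ribosomal RNA gene Rn45s took 3.10% to 7.40% of the CPM at 8 h and 1.85% to 2.61% at 16 h. Replicate 2 of double-KO cells in tamoxifen at 8 h stood apart, with a mean correlation of 0.932 with its group, and values without it are given beside the 8 h results of double-KO cells in tamoxifen. At 16 h the lowest such correlation was 0.978, in replicate 2 of the same line and treatment. All 8 markers of naive stem cells were in the table, and their summed level was 2212 to 3606 CPM in Kmt2c-KO and 2758 to 4848 CPM in double-KO libraries. The 4848 CPM was in tamoxifen at 8 h, and double-KO cells in ethanol had 3134 to 3315 CPM at 8 h and 3232 to 3336 CPM at 16 h. Single markers moved both ways between the lines in ethanol. With the median-of-ratios scaling used below, 3 were called lower and 1 higher in double-KO cells at 8 h, and 4 and 1 at 16 h. The sum of 5 primitive endoderm markers (Sox17 and Sox7 were not in the table) was 0.900 to 5.77 CPM in Kmt2c-KO and 19.98 to 47.6 CPM in double-KO libraries. That of 4 fibroblast markers was 1.06 to 3.57 and 3.61 to 14.7 CPM, and that of 7 trophoblast markers, without Cdx2 and Elf5, 78.5 to 314 and 231 to 323 CPM. Their part in the line differences below was not tested.

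In ethanol all 4 Dppa genes were lower in the double-KO line, at 8 h and at 16 h. At 8 h 11.9% of all 12414 tested genes were called lower and 37.6% higher (adjusted p under 0.05, limma), and at 16 h 9.96% were lower and 40% higher. The median log2 fold change of all tested genes was 0.31 at 8 h and 0.35 at 16 h, and the members lay on the other side of 0. Median-of-ratios scaling moved that median by -0.28 and -0.32 and evened the split of all genes, to 21.3% lower and 20.9% higher at 8 h and to 20.8% lower and 20.7% higher at 16 h. The 4 members were called lower at both times under that scaling as well, with larger falls (Dppa2 -1.59 and -2.08, Dppa3 -5.00 and -2.49, Dppa4 -1.62 and -1.498, Dppa5a -1.92 and -1.85).

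Dppa2, one partner of the DPPA2 and DPPA4 pair, was at 104, 85.7 and 87.3 CPM in Kmt2c-KO cells in ethanol at 8 h and at 36.7, 38.6 and 36.1 CPM in double-KO cells. At 16 h it was at 107, 113 and 109 CPM in Kmt2c-KO and at 29.1, 35.7 and 33.1 CPM in double-KO cells. The lines did not overlap at either time, and the lowest of all 18 Kmt2c-KO libraries was 1.5 times the highest of the 12 double-KO libraries. With 3 libraries per group, unchanged genes can separate too. The share of all genes that did so, here or in the comparisons below, was not counted. The log2 fold change was -1.29 ± 0.10 (SE, n = 3 libraries per group) at 8 h, with an adjusted p of 1.9e-11 in limma, and -1.72 ± 0.10 at 16 h (limma adjusted p = 2.9e-14). In CPM the mean was 2.49 times higher in Kmt2c-KO cells at 8 h and 3.36 times higher at 16 h.

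Dppa4, the other partner, was at 400.3, 289.6 and 332 CPM in Kmt2c-KO and at 122, 130.2 and 159 CPM in double-KO cells in ethanol at 8 h. At 16 h the values were 267, 252 and 259 CPM in Kmt2c-KO and 115, 112 and 126 CPM in double-KO cells. The lines did not overlap in ethanol at either time. Over all treatments they met at 1 point, since replicate 2 of double-KO cells in tamoxifen at 8 h, the library that stood apart, had 223.9 CPM and the lowest Kmt2c-KO library 223.8 CPM. The log2 fold change in ethanol was -1.30 ± 0.13 at 8 h (limma adjusted p = 5.1e-09) and -1.13 ± 0.13 at 16 h (limma adjusted p = 5.7e-08), close in size to that of its neighbour Dppa2 at 8 h.

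Dppa3, the germ cell and egg factor, showed the largest difference. In ethanol at 8 h it was at 50.2, 61.3 and 64.6 CPM in Kmt2c-KO cells and at 0.587, 2.36 and 0.759 CPM in double-KO cells, which were 12 to 52 recovered reads. At 16 h it was at 17.6, 17.8 and 15.4 CPM in Kmt2c-KO and at 2.54, 3.30 and 3.05 CPM in double-KO cells. All Kmt2c-KO libraries were above all double-KO libraries, with the lowest of the first 4.67 times the highest of the second. The log2 fold change was -4.82 ± 0.23 at 8 h (limma adjusted p = 4.7e-16), at place 2 from the lowest of 12414 genes, and -2.18 ± 0.23 at 16 h (limma adjusted p = 7.6e-09), at place 69. These are differences of log2(CPM + 1), which understates the change of a gene near 1 CPM; the ratio of mean CPM was 47.6 at 8 h and 5.72 at 16 h. With pseudocounts of 5 and 0.1 CPM in place of 1 the log2 fold change at 8 h was -3.36 and -5.69.

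Dppa5a, the KH-domain protein, was at 5063, 7010.0 and 5756 CPM in Kmt2c-KO and at 1948, 2084 and 1790.0 CPM in double-KO cells in ethanol at 8 h. At 16 h it was at 8427, 8027 and 7792 CPM in Kmt2c-KO and at 2906, 2925 and 2867 CPM in double-KO cells. The groups did not overlap at either time. The log2 fold change was -1.60 ± 0.23 at 8 h (limma adjusted p = 6.5e-06) and -1.48 ± 0.23 at 16 h (limma adjusted p = 1.5e-05), and the mean CPM differed 3.06 and 2.79 times.

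**Figure D2:**
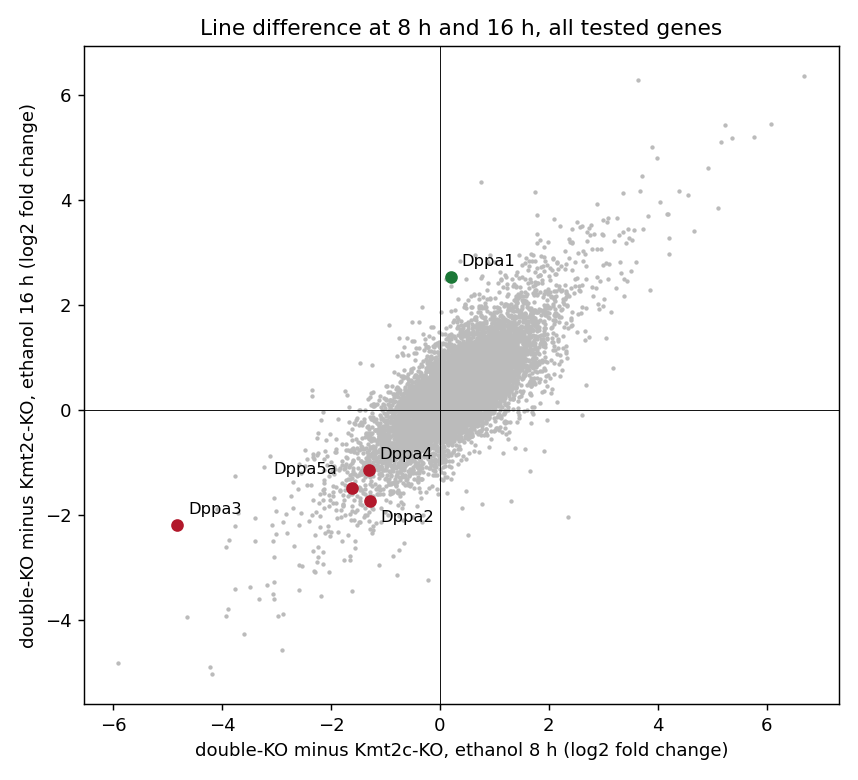
Log2 fold change of double-KO over Kmt2c-KO cells in ethanol at 8 h (x axis) and 16 h (y axis) for 12414 tested genes (grey), the 4 members (red) and Dppa1 (green). The members lie in the lower left, with Dppa3 at -4.82 and -2.18, and Dppa1 lies at 0.20 and 2.54.

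Dppa1, a gene of like name outside the set, did not follow them. It was at or below 0.454 CPM in the 18 Kmt2c-KO libraries. In double-KO cells it was at 0.0490, 0.272 and 0.405 CPM in ethanol at 8 h and at 4.03, 6.65 and 4.80 CPM at 16 h. In double-KO cells in tamoxifen it was at 0.979, 1.24 and 1.19 CPM at 8 h and at 6.84, 3.49 and 6.46 CPM at 16 h. The line difference in ethanol was 0.20 ± 0.21 at 8 h, which was not called (limma adjusted p = 0.44), and 2.54 ± 0.21 at 16 h (limma adjusted p = 6.9e-11).

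The line difference of Dppa3 changed between the times, by 2.64 ± 0.32 (limma adjusted p = 5.3e-06, interaction of line and time), at place 4 from the highest of all genes. It was the only member of the 4 called for that change, beside 4.84% of all genes. The difference of Dppa2 changed by -0.43 ± 0.14 and was not called (limma adjusted p = 0.066). The 95% interval of the change was -0.21 to 0.55 for Dppa4 and -0.55 to 0.81 for Dppa5a. In ethanol the change of Dppa3 had a part in each line, as the following values show.

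In ethanol, Kmt2c-KO cells had 58.7 ± 7.56 CPM of Dppa3 at 8 h and 16.9 ± 1.339 CPM at 16 h (SD, n = 3), a log2 fold change of -1.73 ± 0.23 (limma adjusted p = 1.3e-06). Double-KO cells had 1.23 ± 0.976 CPM at 8 h and 2.96 ± 0.385 CPM at 16 h, a log2 fold change of 0.91 ± 0.23 (limma adjusted p = 0.0056). The 8 h values rested on 12 to 52 recovered reads. In tamoxifen, double-KO cells had 1.90 ± 0.710 CPM at 8 h and 2.27 ± 1.06 CPM at 16 h, groups that overlapped and were not compared by a test. The tamoxifen response of Dppa3 in double-KO cells differed between the times by -0.76 ± 0.32 (16 h minus 8 h, limma adjusted p = 0.77). The rise was thus not shown to differ between ethanol and tamoxifen. Kmt2c-KO cells without GRHL2-ERT, in tamoxifen, moved as the Kmt2c-KO line did, from 56.6, 61.1 and 58.9 CPM at 8 h to 21.01, 24.3 and 23.0 CPM at 16 h, a mean 2.59 times lower (limma adjusted p = 5.5e-05). Apart from double-KO cells in tamoxifen, none of these pairs of groups overlapped. The times differed in many genes: 45% of all genes were called in Kmt2c-KO cells with GRHL2-ERT, 36.6% in those without it and 21.3% in double-KO cells. The share of Rn45s differed between the times as given above. In Kmt2c-KO cells in ethanol the sum of the 7 trophoblast markers was 216 to 243 CPM at 8 h and 78.5 to 95.9 CPM at 16 h (6 called lower and 1 higher, or 5 and 1 with median-of-ratios scaling). That of the 6 primordial germ cell markers, which leave out Dppa3 and share Tfap2c with the first list, was 106 to 140 CPM at 8 h and 63.7 to 71.1 CPM at 16 h (3 called lower and 1 higher under either scaling). In double-KO cells the same sums were 231 to 263 and 254 to 274 CPM for trophoblast markers, and 52.5 to 59.4 and 60.1 to 67.7 CPM for germ cell markers. The part of Rn45s and of these markers in the differences was not tested.

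The other members moved less with time. In Kmt2c-KO cells in ethanol, Dppa4 was lower at 16 h by -0.38 ± 0.13 (limma adjusted p = 0.020) and Dppa2 higher by 0.25 ± 0.10 (limma adjusted p = 0.039). Neither call held throughout: that of Dppa4 was lost with median-of-ratios scaling (-0.26, limma adjusted p = 0.17) and without ethanol replicate 1 at 8 h or replicate 2 at 16 h. That of Dppa2 was lost without any 1 of 5 of the 6 libraries, and with the libraries of the contrast alone (limma adjusted p = 0.056). Dppa5a had a mean of 5943 ± 987 CPM at 8 h and 8082 ± 321 CPM at 16 h in that line and 1941 ± 147 and 2899 ± 29.8 CPM in double-KO cells. Its groups did not overlap between the times in either line, and the differences of 0.46 ± 0.23 and 0.58 ± 0.23 were not called (limma adjusted p = 0.11 and 0.076). In each line 4 of 14 alternatives called Dppa5a higher at 16 h and 10 did not. The limma adjusted p ran from 3.4e-05 to 0.31 in Kmt2c-KO and from 4.6e-06 to 0.21 in double-KO cells, so a change with time is not excluded.

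Tamoxifen sends GRHL2-ERT to the nucleus, and the study asks how cells with and without KMT2D respond to it. In Kmt2c-KO cells 1 of the 4 members was called at 8 h, beside 4.95% of all genes. This was Dppa4, which fell from 400.3, 289.6 and 332 CPM in ethanol to 248, 224 and 260.2 CPM in tamoxifen, with no overlap (-0.47 ± 0.13, limma adjusted p = 0.031). Dppa2 had 104, 85.7 and 87.3 CPM in ethanol and 71.0, 77.9 and 72.2 CPM in tamoxifen, with no overlap, and was not called (-0.32 ± 0.10, limma adjusted p = 0.056). Dppa3 had 72.1 to 79.3 CPM in tamoxifen against 50.2 to 64.6 CPM in ethanol (0.37 ± 0.23, limma adjusted p = 0.41), and Dppa5a 6708 to 8025 against 5063 to 7010.0 CPM (0.33 ± 0.23, limma adjusted p = 0.48). The call of Dppa4 was lost without ethanol replicate 1 (-0.35, limma adjusted p = 0.21), ethanol replicate 3 (0.074), tamoxifen replicate 1 (0.080) or tamoxifen replicate 2 (0.17). With median-of-ratios scaling Dppa2 was the 1 member called, at -0.34 (limma adjusted p = 0.037), and Dppa4 was not, at -0.50 (limma adjusted p = 0.060). The pair thus lay near the threshold, and which partner passed it depended on the scaling. Other measures separated the same groups. Rn45s took 4.02% to 7.40% of the CPM in ethanol and 3.10% to 3.47% in tamoxifen. The sum of the 8 naive markers was 2777 to 3098 CPM in ethanol and 2212 to 2312 CPM in tamoxifen (3 called lower), and that of the 7 trophoblast markers 216 to 243 and 292 to 314 CPM (2 called higher). Their part in the fall of Dppa4 was not tested.

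A second comparison set Kmt2c-KO cells in tamoxifen with GRHL2-ERT against those without it. At 8 h Dppa2 was at 98.2, 102 and 104 CPM without GRHL2-ERT and so above the 71.0 to 77.9 CPM with it. It was called lower with GRHL2-ERT (-0.46 ± 0.10, limma adjusted p = 0.0042), beside 1.39% of all genes called lower and 4.07% called in either direction. Leaving out any 1 of the 6 libraries kept that call, with an adjusted p of at most 0.028 in limma. Dppa4 was at 265, 308 and 297 CPM without GRHL2-ERT, above its 224 to 260.2 CPM with it, and was not called (-0.25 ± 0.13, limma adjusted p = 0.41). Dppa3 was at 56.6 to 61.1 CPM without GRHL2-ERT, below its 72.1 to 79.3 CPM with it, and was not called (0.36 ± 0.23, limma adjusted p = 0.55). Dppa5a was not called either (0.20 ± 0.23, limma adjusted p = 0.83). This comparison and the one before share the GRHL2-ERT tamoxifen libraries. Without GRHL2-ERT the naive marker sum was 2816 to 3029 CPM and the trophoblast marker sum 191 to 232 CPM, so both separated these groups too, and their part in the difference was not tested.

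At 16 h in Kmt2c-KO cells, 0 of the 4 members were called for tamoxifen against ethanol, beside 0.298% of all genes (597 at an unadjusted p under 0.05), and 0 for GRHL2-ERT against none, beside 0.975% (1076 at an unadjusted p under 0.05). A share of 0.05 of unchanged genes would reach that unadjusted threshold, and the unadjusted counts here and below are to be read against that share of all tested genes. In tamoxifen Dppa2 was at 93.2, 103 and 105 CPM with GRHL2-ERT and at 110.0, 119.5 and 123.3 CPM without it, groups that did not overlap (-0.22 ± 0.10, limma adjusted p = 0.45). Dppa3 was at 22.2, 23.3 and 21.8 CPM in tamoxifen, above its 15.4 to 17.8 CPM in ethanol (0.39 ± 0.23, limma adjusted p = 1), but within the 21.01 to 24.3 CPM of tamoxifen cells without GRHL2-ERT. Dppa4 was within 248 to 267 CPM and Dppa5a within 7792 to 9151 CPM in all 9 Kmt2c-KO libraries at 16 h. The 8 h and 16 h responses were not shown to differ: 0 members were called for that difference, beside 0.0644% of all genes (789 at an unadjusted p under 0.05). The difference for Dppa4 was 0.44 ± 0.19 (limma adjusted p = 0.74).

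**Figure D3:**
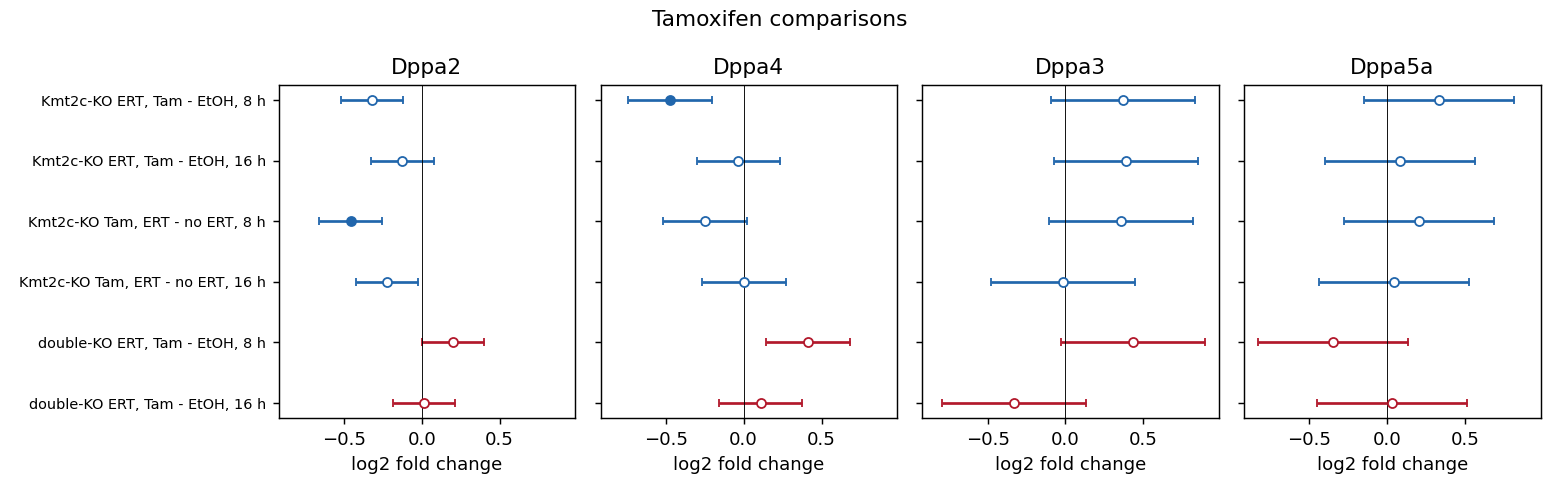
Log2 fold change with 95% interval for each member in 6 tamoxifen comparisons (tamoxifen minus ethanol, or with minus without GRHL2-ERT, 3 libraries per group); blue is Kmt2c-KO, red is double-KO, and filled points have an adjusted p under 0.05 in limma. The 2 filled points are Dppa4 at -0.47 and Dppa2 at -0.46, both at 8 h in Kmt2c-KO cells.

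In double-KO cells 0 of the 4 members were called for tamoxifen against ethanol, beside 0.0967% of all genes at 8 h (2520 at an unadjusted p under 0.05) and 0.0403% at 16 h (519 at an unadjusted p under 0.05). At 8 h Dppa4 was at 122, 130.2 and 159 CPM in ethanol and at 193, 223.9 and 140.1 CPM in tamoxifen, groups that overlapped (0.42 ± 0.13, limma adjusted p = 0.15). Without the library that stood apart, which had the 223.9 CPM, the difference of Dppa4 was 0.27 (limma adjusted p = 0.95). Dppa2 was at 36.7, 38.6 and 36.1 CPM in ethanol and at 41.2, 40.3 and 47.3 CPM in tamoxifen, with no overlap (0.20 ± 0.10, limma adjusted p = 0.24, and 0.24 without that library). Dppa3 was at 1.41, 1.58 and 2.71 CPM in tamoxifen at 8 h, against 0.587 to 2.36 CPM in ethanol, groups that overlapped (0.43 ± 0.23, and 0.50 without that library). Dppa5a was at 2028, 751 and 2304 CPM in tamoxifen, the middle value being the library that stood apart. In it Rn45s took 7.37% of the CPM, against 3.76% and 3.89% in the other libraries of its group, and the part of this in its values was not tested. Its difference was -0.35 ± 0.23 with that library and 0.16 without it, neither of which was called. At 16 h, tamoxifen gave 33.6, 32.2 and 32.8 CPM of Dppa2, 2.91, 1.05 and 2.86 CPM of Dppa3, 117, 145 and 121 CPM of Dppa4, and 2898, 3050.1 and 2923 CPM of Dppa5a.

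The 8 h response of Dppa4 differed between the lines by 0.89 ± 0.19 (double-KO minus Kmt2c-KO, limma adjusted p = 0.014), beside 1.43% of all genes called. It was called for 1 member only, while the difference for Dppa2 was 0.52 ± 0.14 (limma adjusted p = 0.051). Without the double-KO tamoxifen library that stood apart, the difference for Dppa4 was 0.74 (limma adjusted p = 0.019) and that for Dppa2 was called as well, at 0.56 (limma adjusted p = 0.045). The call was lost without ethanol replicate 1 or tamoxifen replicate 2 of Kmt2c-KO cells, without ethanol replicate 1 of double-KO cells, and with the libraries of the contrast alone (limma adjusted p = 0.062, 0.056, 0.053 and 0.41). It was also lost with array weights, which count less consistent libraries less (0.65, limma adjusted p = 0.50). At 16 h 0 members and 0% of all genes were called for the difference between lines (315 at an unadjusted p under 0.05). The change of the double-KO response with time was called for 0 members and 0% of all genes (714 at an unadjusted p under 0.05).

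How the members varied together depended on the line. Over all 30 libraries Pearson's r of log2(CPM + 1) ran from 0.66 (Dppa4 with Dppa5a) to 0.89 (Dppa2 with Dppa4), points that share the 2 lines and the 2 times. Within a line the points still share times, treatments and libraries. Over the 18 Kmt2c-KO libraries r was -0.75 for Dppa2 with Dppa3, -0.87 for Dppa4 with Dppa5a and -0.65 for Dppa3 with Dppa5a, and it was 0.08 for the neighbours Dppa2 and Dppa4. Over the 12 double-KO libraries r was -0.81 for Dppa4 with Dppa5a and 0.52 for Dppa2 with Dppa4. There r was -0.11 for Dppa2 with Dppa3 and 0.41 for Dppa3 with Dppa5a. For Dppa2 with Dppa5a r was 0.21 in Kmt2c-KO and -0.51 in double-KO libraries, and for Dppa3 with Dppa4 it was 0.32 and -0.45. Without the library that stood apart, which had the highest Dppa4 and the lowest Dppa5a of the line, r over the other 11 was -0.57 for Dppa4 with Dppa5a and 0.49 for Dppa2 with Dppa4. Over those 11 it was -0.08 for Dppa2 with Dppa3, 0.64 for Dppa3 with Dppa5a, -0.60 for Dppa2 with Dppa5a and -0.52 for Dppa3 with Dppa4. The members were thus low together in double-KO cells, while Dppa4 and Dppa5a had a negative r within each line.

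For each member the 5 genes with the highest r over the 30 libraries were named among 8473 genes with a mean of at least 5 CPM. Those of Dppa2 were L1td1, Rex2, Dnmt3l, Pdcl2 and Mcf2 (0.98 to 0.97). L1td1 and Dnmt3l, which encode an RNA-binding protein and a cofactor of de novo DNA methylation, had an r of 0.78 and 0.87 within the Kmt2c-KO libraries. Within the double-KO libraries r was 0.76 for L1td1, 0.67 for Rex2, 0.39 for Dnmt3l, 0.27 for Pdcl2 and 0.20 for Mcf2. Those of Dppa3 were Apoe, Tdrd12, Aim2, Ldhb and Lima1 (0.97 to 0.96), among which Tdrd12 belongs to the piRNA pathway. Within the 18 Kmt2c-KO libraries Ldhb and Apoe had an r of 0.97 and 0.96 with Dppa3, and within the 12 double-KO libraries -0.44 and -0.27. Those of Dppa4 were Eif2s2, Hsp90aa1, Rif1, Glipr2 and Rpl36 (0.97 to 0.96), and those of Dppa5a were Trim13, Csrp2, Sod2, Rpl35a and Eef1b2 (0.98). The r over both lines follows the line difference of the members, so these genes were chosen in part for being lower in double-KO cells, and their line differences are a description. They ran, for example, from Mcf2 at -4.22 at 8 h and -4.89 at 16 h to Eef1b2 at -0.32 and -0.34.

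Genes near the members were examined for the line difference, taking annotated starts within 250 kb. Beside Dppa2 and Dppa4 the only other such gene in the table was Morc1, a germline repressor of transposons, 127 kb from the start of Dppa2. Morc1 was lower in double-KO cells at 16 h, with 25.1 ± 1.41 against 105 ± 1.24 CPM (-2.02 ± 0.36, limma adjusted p = 6.6e-05), and was not called at 8 h (-0.50 ± 0.36). A wider list of genes of this region held 3 tested genes, of which Morc1 was lower at 16 h and 2 were higher, Plcxd2 (1.36 ± 0.28) and Dzip3 (0.37 ± 0.12). With median-of-ratios scaling Dzip3 was not called there.

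Dppa3 lies in a cluster with Nanog, Gdf3 and Apobec1, and 8 of its neighbours were in the table. At 8 h 5 were higher and 0 lower in double-KO cells, and at 16 h 4 were higher and 1 lower. The nearest, Gdf3, a TGF-beta family ligand 16.3 kb away, was at 102 ± 6.67 and 102 ± 3.10 CPM in double-KO and Kmt2c-KO cells at 8 h (0.01 ± 0.10, not called). Nanog, the pluripotency factor 81.1 kb away, was higher at 8 h, with 544 ± 93.5 against 321 ± 34.6 CPM (0.75 ± 0.25, limma adjusted p = 0.018), and was not called at 16 h (0.29 ± 0.25). Slc2a3, a glucose transporter, was higher at both times (1.42 ± 0.20 and 1.44 ± 0.20), as was Apobec1, a cytidine deaminase (0.93 ± 0.22 and 1.17 ± 0.22). Rimklb, 128 kb away, was the 1 neighbour that was lower, at 16 h (-1.55 ± 0.17, limma adjusted p = 2.8e-08). Under median-of-ratios scaling 3 neighbours were higher and 2 lower at 8 h, and 4 higher and 2 lower at 16 h. There Nanog was not called at 8 h (0.43, limma adjusted p = 0.12), and Gdf3 was called lower at both times (-0.31 and -0.56).

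Around Dppa5a 9 genes were in the table. Mb21d1, which encodes the DNA sensor cGAS, was higher in double-KO cells at both times (1.31 ± 0.25 and 1.13 ± 0.25), and Cd109 was higher and Gsta4 lower at 16 h (1.12 ± 0.38 and -0.61 ± 0.15). Ooep, an egg protein with a KH domain like that of DPPA5A and 10.6 kb away, was at 50.5 ± 21.9 against 82.3 ± 32.4 CPM at 8 h and at 243 ± 16.0 against 426 ± 34.1 CPM at 16 h. Neither difference of Ooep was called (-0.74 ± 0.45 and -0.80 ± 0.45, limma adjusted p = 0.18 and 0.15). Under median-of-ratios scaling both were called lower (-1.05 and -1.17, limma adjusted p = 0.0499 and 0.029), and of the 9 genes 1 was higher and 2 lower at 8 h, and 2 higher and 3 lower at 16 h.

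**Figure D4:**
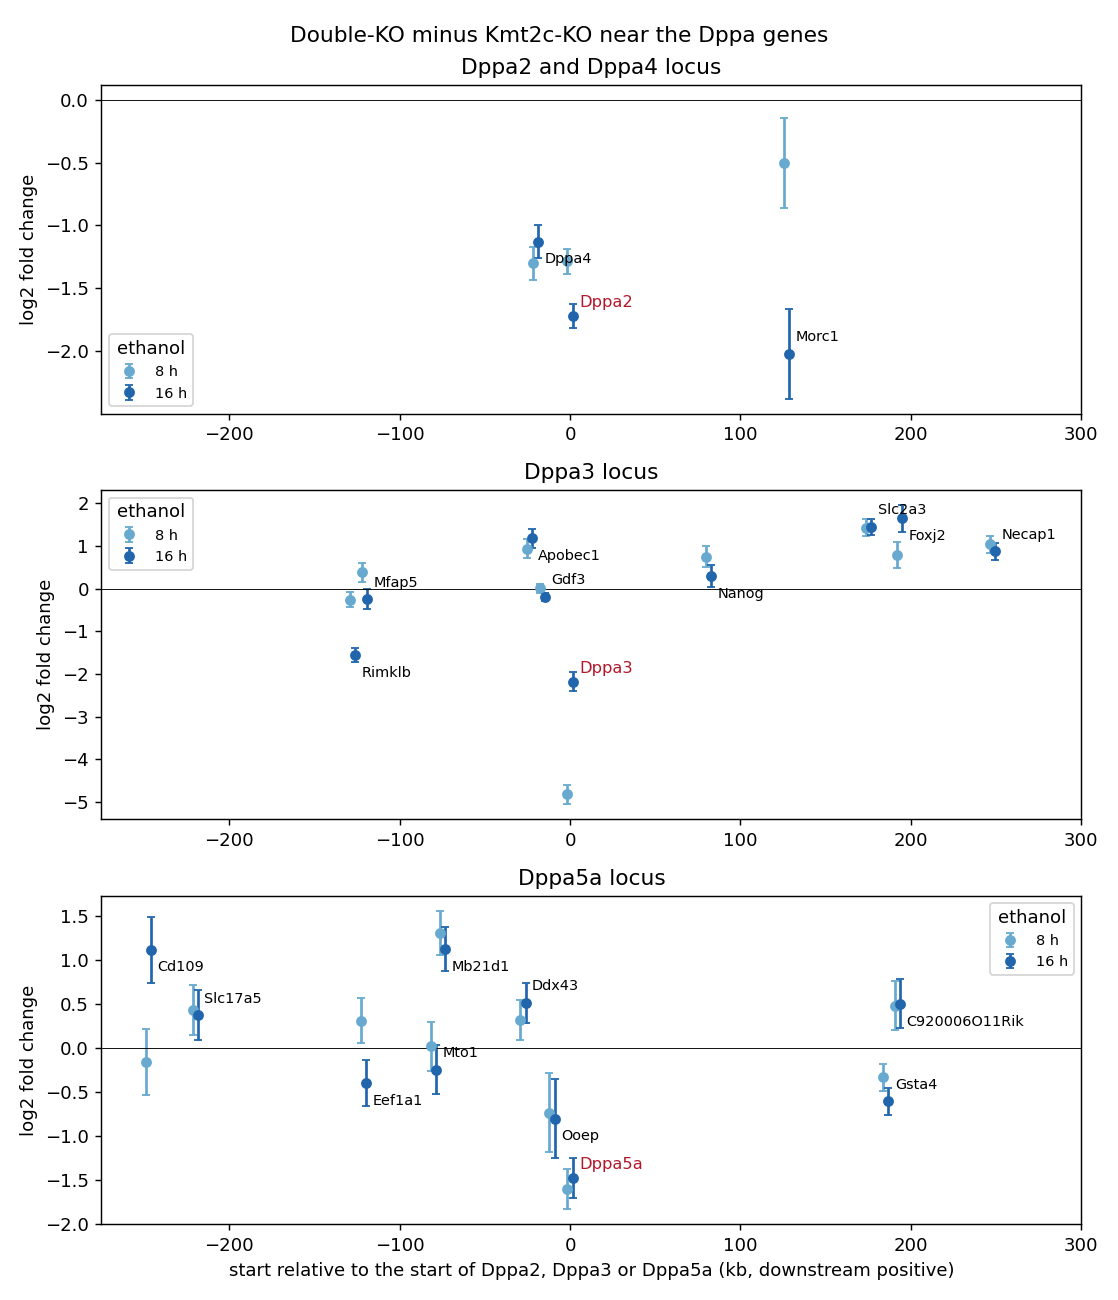
Log2 fold change of double-KO over Kmt2c-KO cells in ethanol (points, with SE bars) for genes whose start lies within 250 kb of the start of Dppa2, Dppa3 or Dppa5a, against distance in kb in the direction of transcription; light points are 8 h and dark points 16 h. Dppa3 lies at -4.82 and -2.18 while Gdf3, 16.3 kb away, lies at 0.01 and -0.19.

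Lists of genes linked to the members were described by counts, beside the medians of all genes of 0.31 at 8 h and 0.35 at 16 h. Of all genes 37.6% were called higher and 11.9% lower at 8 h, and 40% and 9.96% at 16 h, against which the counts of each list are to be read. Because median-of-ratios scaling moved those medians to 0.03 and 0.02, each list's counts are also given under it. Of 32 genes of the 2-cell-like state, which DPPA2 and DPPA4 act upstream of, 8 were tested. In double-KO cells in ethanol all 8 were higher at 8 h (median 1.63) and 3 were higher and 0 lower at 16 h (median 0.55). Zscan4c, a marker of that state, had 13.2 CPM in double-KO and 0.662 CPM in Kmt2c-KO cells at 8 h (3.18 ± 0.22, limma adjusted p = 3.9e-12), and 11.3 and 6.06 CPM at 16 h (0.80 ± 0.22, limma adjusted p = 0.0042). Under median-of-ratios scaling 7 were higher at 8 h and 2 at 16 h, with 0 lower, and Zscan4c was no longer called at 16 h (0.47, limma adjusted p = 0.095). Dppa2 and Dppa4 were lower in the same libraries. These genes were not low in all Kmt2c-KO groups. Between 8 h and 16 h 7 of the 8 rose in Kmt2c-KO cells in ethanol (median 1.28) and 8 of 8 in Kmt2c-KO cells without GRHL2-ERT (median 2.07), with the same counts under median-of-ratios scaling. The sum of the 2 tested markers of that state was 18.3 to 20.6 CPM in Kmt2c-KO cells without GRHL2-ERT at 16 h, above the 9.78 to 15.5 CPM of double-KO cells in ethanol at that time. Dux and Duxf3, by which the state is driven, were not among the genes tested.

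Of 20 germline genes tested, 8 were higher and 6 lower at 8 h (median 0.28), and 10 were higher and 5 lower at 16 h (median 0.82). Piwil2, of the piRNA pathway, was higher at 2.79 ± 0.29 and 2.35 ± 0.29, and Sycp3, of the meiotic chromosome axis, lower at -1.78 ± 0.26 and -1.80 ± 0.26. Under median-of-ratios scaling 5 germline genes were higher and 7 lower at 8 h, and 9 higher and 6 lower at 16 h. Regulators of primordial germ cells, the cells that DPPA3 marks, were lower in part: 8 of 10 were lower and 0 higher at 8 h (median -0.94), and 4 were lower and 1 higher at 16 h (median -0.44). At 8 h Tfap2c had 19.2 against 80.9 CPM (-2.02 ± 0.20), Prdm1 0.614 against 6.59 CPM (-2.24 ± 0.27) and Nanos3 1.36 against 8.55 CPM (-2.11 ± 0.29), 3 transcription and RNA regulators of germ cell fate. Ifitm1 was the 1 gene of this list that was higher, at 16 h (0.67 ± 0.14), and was not called under median-of-ratios scaling, where 8 genes were lower at 8 h and 6 at 16 h and 0 were higher.

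DPPA3 acts on maintenance methylation, and of the 8 genes of that machinery 1 was higher and 0 lower at 8 h (median 0.18), and 2 were higher and 1 lower at 16 h (median -0.03). Under median-of-ratios scaling the counts turned, with 3 lower and 0 higher at either time. Uhrf1, the protein that DPPA3 restrains, was not called at either time (0.09 ± 0.21 and -0.33 ± 0.21), but under that scaling was called lower at 16 h (-0.69, limma adjusted p = 0.0025). Of 7 genes for de novo methylation and TET enzymes, 4 were lower and 2 higher at 8 h (median -0.82), and 4 lower and 3 higher at 16 h (median -0.73). Under median-of-ratios scaling 4 were lower at both times, and 2 were higher at 8 h and 1 at 16 h. Dnmt3l was lower at 17.98 against 138 CPM at 8 h (-2.88 ± 0.14) and 9.72 against 156 CPM at 16 h (-3.87 ± 0.14). Tet1, which oxidises methylcytosine, was lower at both times (-2.12 ± 0.13 and -1.13 ± 0.13), whereas Tet3 was higher at both (2.57 ± 0.31 and 2.28 ± 0.31). Tet2 was higher too (1.66 ± 0.12 and 0.46 ± 0.12), at 16 h only without that scaling.

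Among 21 COMPASS and Polycomb subunits, whose complexes share bivalent promoters with DPPA2 and DPPA4, 8 were higher and 2 lower at 8 h (median 0.15), and 10 higher and 2 lower at 16 h (median 0.27). These were 38.1% and 9.52% at 8 h and 47.6% and 9.52% at 16 h, shares near those of all genes. With median-of-ratios scaling 3 were higher and 5 lower at 8 h, and 2 higher and 6 lower at 16 h, so the balance of this list turned with the scaling. Mtf2, a Polycomb accessory protein, was lower at both times (-0.58 ± 0.08 and -0.68 ± 0.08). Of 7 tested genes that share Dppa or ECAT names, 3 were lower at 8 h, namely Fbxo15 (-3.05 ± 0.20), Dnmt3l and L1td1 (-0.94 ± 0.08), and 0 were higher. At 16 h 5 were lower and 1, Dppa1, was higher. With median-of-ratios scaling 5 were lower and 0 higher at 8 h, and 6 lower and 1 higher at 16 h. A list of egg and embryo genes around the KH-domain relatives of Dppa5a gave 4 tested genes, of which 1 was higher at 8 h (Zbed3, 1.13 ± 0.40, which encodes a BED zinc finger protein and no KH relative) and 1 lower at 16 h (Khdc3, 0.211 against 1.40 CPM, limma adjusted p = 0.00097). With median-of-ratios scaling 1 was lower at 8 h and 2 at 16 h, and 0 were higher.

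**Figure D5:**
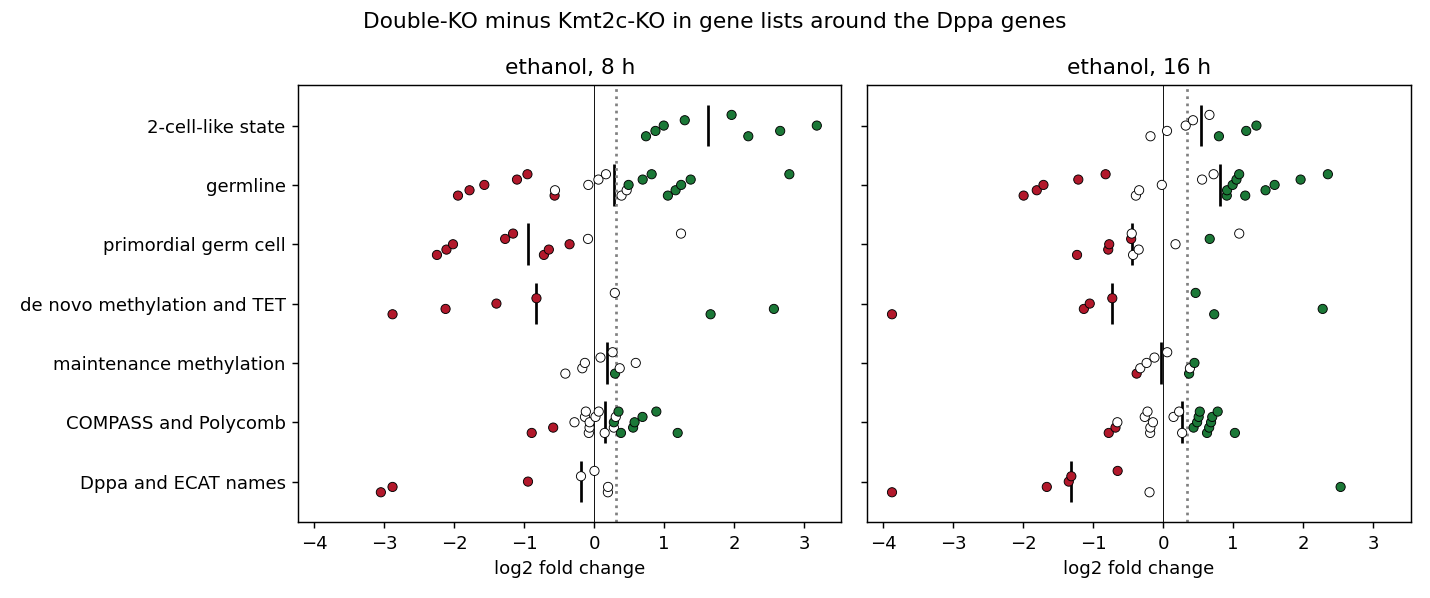
Log2 fold change of double-KO over Kmt2c-KO cells in ethanol at 8 h and 16 h for each tested gene of 7 lists; green is called higher, red called lower and white not called, the black bar is the list median and the dotted line the median of all genes (0.31 and 0.35). The 8 genes of the 2-cell-like state are all green at 8 h, with a median of 1.63, and the primordial germ cell list has a median of -0.94.

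Naive and formative pluripotency genes were lower in part. Of 15 naive factors 7 were lower and 3 higher at 8 h (median -0.25) and 8 lower and 2 higher at 16 h (median -0.36); Tcl1 was lower at -3.05 ± 0.18 and -3.49 ± 0.18, Sox2 lower at -1.52 ± 0.10 and -1.24 ± 0.10, and Klf4 higher at 1.28 ± 0.13 and 1.07 ± 0.13. Of 9 formative and primed genes 6 were lower and 1 higher at 8 h, and 5 lower and 2 higher at 16 h, with Utf1 lower at -1.57 ± 0.13 and -2.62 ± 0.13 and Otx2 higher at 1.59 ± 0.16 at 16 h. Median-of-ratios scaling gave 8 naive factors lower and 2 higher at 8 h and 9 and 1 at 16 h, and 7 formative genes lower and 1 higher at 8 h and 5 and 1 at 16 h. In Kmt2c-KO cells at 8 h of tamoxifen 5 of 15 naive factors also fell and 0 rose (median -0.34, beside 0.03 for all genes), led by Tcl1 (-1.69 ± 0.18, limma adjusted p = 3.4e-07). There 0 of 8 genes of the 2-cell-like state and 0 of 20 germline genes were called, and Dnmt3l fell (-0.91 ± 0.14, limma adjusted p = 0.00015).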

How the data were processed

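Per the labels' protocols, total RNA was made into QuantSeq 3′ libraries and sequenced as single-end reads. Salmon, DESeq2 1.34.0 and the mm10 build are named in the submitters' processing notes, with no step given for them. The authors deposited log2 values for 12428 genes in 30 library columns, beside their means and differences. Each value was the log2 of CPM plus 0.124871, and the Kmt2c-KO columns were assigned to cells with or without GRHL2-ERT from the treatments that the labels list.

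From these, CPM were recovered. Tests used limma 3.58.1 (R 4.3.3) on log2(CPM + 1), fitting 10 group means over 30 libraries with a variance trend and robust moderation (20 residual degrees of freedom). Genes that reached 1 CPM in a group mean were tested (12414), and 14 were removed. Benjamini-Hochberg adjusted p, two-sided, was taken over all tested genes in each comparison, and below 0.05 a gene was called. SE are of the model. The fit was tested on simulated data.

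Reads were recovered from the spacing of low values, of which 95.78% to 97.58% were whole within 0.05 reads; a floor of 3 reads stood for 0.136 to 0.3387 CPM and covers counting error only. Positions and transcript sequences come from GENCODE mouse release 21 (mm10), which placed 96.3% of symbols. The members and the gene lists were chosen with earlier results of these data known. Named genes were the members, up to 4 called genes per list with the smallest adjusted p, neighbours within 250 kb and 5 genes per member with the highest r; Dppa1 and Uhrf1 come from the lists, and other list genes outside the rule were chosen after their values were seen. The alternatives were pseudocounts of 0.1 and 5 CPM, no filter, the libraries of a contrast alone, a replicate block, median-of-ratios scaling, array weights, leaving out each library and, added after the data were seen, leaving out the library of each time with the lowest mean correlation with its group.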

Additional observations from a re-analysis of the deposited data

Results flagged for a closer look

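The difference between lines in ethanol changed with time for Dppa3, by 2.64 ± 0.32 (16 h minus 8 h, limma adjusted p = 5.3e-06), as tested by the interaction of line and time. All 6 Kmt2c-KO libraries in ethanol lay above the 6 double-KO libraries. The change was between 2.43 and 2.97 when any 1 of the 12 libraries was left out, and over all 20 alternatives it ran from 1.90, with a pseudocount of 5 CPM, to 3.21, with a pseudocount of 0.1 CPM.

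Dppa1, outside the set, had a change of the same kind, 2.34 ± 0.29 (limma adjusted p = 8.5e-06), with 0 to 3 recovered reads in the Kmt2c-KO libraries and 65 to 113 in the double-KO libraries at 16 h.

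The 8 h response of Dppa4 to tamoxifen differed between the lines by 0.89 ± 0.19 (double-KO minus Kmt2c-KO, limma adjusted p = 0.014). In Kmt2c-KO cells all 3 tamoxifen libraries lay below the ethanol libraries, and in double-KO cells 2 of 3 lay above them. Replicate 2 of the double-KO tamoxifen libraries stood apart from its group, and without it the difference was 0.74 (limma adjusted p = 0.019). Over all 21 alternatives the call was kept in 15 and lost in 6, with a limma adjusted p of up to 0.50.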

How the results depend on the processing

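The falls of all 4 members in double-KO cells in ethanol kept their call and direction in 112 of 112 fits under the alternatives. Other counts of called members were small and moved. The shares of all genes called in the same alternative fits are not given here, so these counts do not set the members apart from other genes. For tamoxifen in Kmt2c-KO cells at 8 h (1 as reported) the count was 2 with a pseudocount of 5 CPM, 3 with array weights, 3 when the least correlated library of each time was left out (2 libraries), 0 with a replicate block within each line and time, and 0 to 2 when 1 library was left out. For the difference of 8 h responses (1 as reported) it was 2 with a pseudocount of 5 CPM, median-of-ratios scaling or those 2 libraries left out. It was 0 with array weights, with that replicate block or with only the contrast's own libraries, and 0 to 3 when 1 library was left out. For tamoxifen in double-KO cells at 8 h (0 as reported) it was 0 to 2 when 1 library was left out, the 2 being Dppa4 higher and Dppa5a lower without tamoxifen replicate 3. For GRHL2-ERT against none at 8 h (1 as reported) it was 3 with only the contrast's own libraries and 2 with array weights. For 16 h against 8 h in double-KO cells (1 as reported) it was 2 with only those libraries, with median-of-ratios scaling or with the 2 libraries left out, and 3 with array weights. In Kmt2c-KO cells with GRHL2-ERT (3 as reported) it was 4, with Dppa5a called higher, with array weights or with the 2 libraries left out, and 1 to 2 when 1 library was left out. Without GRHL2-ERT (1 as reported) it was 4 with only the contrast's own libraries, 3 with median-of-ratios scaling or array weights, and 2 with the 2 libraries left out. For the change of the line difference (1 as reported) it was 2 with median-of-ratios scaling, array weights or the 2 libraries left out, and 1 to 2 when 1 library was left out. The cause was not tested. The estimation of array weights stopped before its convergence tolerance was reached, so values with array weights are approximate.

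Signs turned only for differences that were not called as reported. Leaving out 1 library gave -0.061 to 0.082 for Dppa2 (tamoxifen, double-KO, 16 h), -0.051 to 0.13 for Dppa3 (16 h against 8 h response, Kmt2c-KO), -0.14 to 0.40 for Dppa3 (difference of 8 h responses), -0.072 to 0.028 for Dppa3, -0.011 to 0.028 for Dppa4 and -0.0060 to 0.10 for Dppa5a (GRHL2-ERT against none, 16 h), and -4.7e-05 to 0.23 for Dppa5a (change of the line difference). It gave -0.65 to 0.16 for Dppa5a (tamoxifen, double-KO, 8 h) and -0.13 to 0.68 for Dppa5a (16 h against 8 h response, double-KO), where the 2 libraries left out together gave 0.16 and -0.15. A pseudocount of 5 CPM gave -0.022 and -0.19 for the first 2 differences of Dppa3 and array weights -0.0084 for the second; median-of-ratios scaling gave -0.015 and array weights -0.0039 for Dppa4 at 16 h. The same replicate numbers did not pair libraries: of 12 pairs 1 had a correlation over 0.1 (-0.60 to 0.14). With a replicate block over all libraries the 16 counts of called members were the same, and Dppa4 in Kmt2c-KO cells in tamoxifen at 8 h had an adjusted p of 0.045 in limma. The least abundant member, Dppa3, rested on 12 to 56 reads in double-KO libraries, so its ratios there are the least precise.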
